A study of Mus musculus with 2 samples.

Results

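Iron handling and metallothioneins were read as 9 genes (Slc11a1, Slc11a2, Slc40a1, Fth1, Ftl1, Tfrc, Hmox1, Mt1 and Mt2), chosen by symbol out of the 32589 genes listed in both count tables. All 9 were found and had a mean of at least 5 CPM (counts per 1000000 counts of the summed cells) in microglia-like cells, so each is described. The cells were isolated from prefrontal cortex of C57BL/6 mice given vehicle or corticosterone by oral gavage, where corticosterone is the principal stress hormone of rodents and its excess serves as a depression model. They were sorted with antibodies for low CD45 and for CD11b, a gate meant for microglia, the resident macrophages of the brain, and read by single-cell RNA sequencing. Each group was 1 library, with no genetic change named in the labels, and the dose, the duration, the sex and the number of animals pooled are not given in the sources used here. The deposited files carry the words wildtype and depression where the sample titles say vehicle and corticosterone; each file was assigned through its sample record, and every direction below rests on that. Group and library therefore cannot be told apart, no test between groups was possible, and every 95% interval below covers counting error only.

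Iron enters most cells bound to transferrin through the transferrin receptor, crosses the endosomal membrane through a divalent metal transporter, is stored inside ferritin shells built of heavy and light chains, and leaves through ferroportin. Macrophages also gain iron by breaking down haem from engulfed red cells, and they pump metal ions out of the phagosome. Iron regulatory proteins bind a hairpin, the iron-responsive element, in the messenger RNA: in the 5′ UTR it blocks translation when iron is scarce, and in the 3′ UTR of the transferrin receptor it protects the message from decay. Metallothioneins are small cysteine-rich proteins that bind zinc and copper, and their genes are known to respond to metals and to glucocorticoids.

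The hairpins are shown because they are the sites through which iron is known to act on these messages, on translation for those in the 5′ UTR and on the amount of RNA for those of Tfrc. A search of GENCODE M21 transcripts on GRCm38 for an unpaired C, 5 bases able to pair (G with U allowed), the loop CAGTGN and the 5 pairing bases found them in 4 of the 9 members. Each is printed 5′ to 3′ in the sense of the transcript as 29 bases with the loop in capitals, and the number is the loop's first base counted from the start of the UTR.
Fth1 5′ UTR, base 99 of 224: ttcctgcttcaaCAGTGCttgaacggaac
Ftl1 5′ UTR, base 90 of 253: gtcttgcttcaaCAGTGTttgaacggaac
Slc40a1 5′ UTR, base 102 of 319: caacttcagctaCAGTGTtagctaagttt
Tfrc 3′ UTR, base 895 of 2458: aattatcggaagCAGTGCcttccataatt
Tfrc 3′ UTR, base 1274 of 2458: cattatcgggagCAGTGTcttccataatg
Tfrc 3′ UTR, base 1339 of 2458: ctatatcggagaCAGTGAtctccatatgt
Tfrc 3′ UTR, base 1386 of 2458: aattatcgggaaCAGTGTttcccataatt
The Fth1 and Ftl1 hairpins matched at 26 of 29 bases, and each matched that of Slc40a1 at 13 of 29. The same pattern occurred in the 5′ UTR of 31 of 20916 genes (0.148%) and in the 3′ UTR of 129 of 21039 (0.613%). A match is a description of the letters and not of binding, and the counts measure RNA, not protein. The pattern allowed no mismatch or bulge among the 5 pairs, so hairpins of other shape would be missed. A member without a match may therefore still carry an element, and Tfrc may carry more than those printed.

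The 2 metallothionein genes lie side by side on chromosome 8 (GRCm38, plus strand), Mt2 at 94172664 to 94173568 and Mt1 at 94179082 to 94180327, with 5513 bases and no annotated gene between them. Their promoters are shown for the metal response element, the site of the zinc-sensing factor encoded by Mtf1, searched as TGCACNC or TGCGCNC on both strands. The windows are the 150 bases before the RefSeq start site in GRCm38.p6, plus strand, with the matches in capitals.
Mt1, chr8:94178939-94179088: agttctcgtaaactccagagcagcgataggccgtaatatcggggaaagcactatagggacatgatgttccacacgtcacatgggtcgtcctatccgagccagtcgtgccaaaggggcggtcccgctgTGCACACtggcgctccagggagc
Mt2, chr8:94172468-94172617: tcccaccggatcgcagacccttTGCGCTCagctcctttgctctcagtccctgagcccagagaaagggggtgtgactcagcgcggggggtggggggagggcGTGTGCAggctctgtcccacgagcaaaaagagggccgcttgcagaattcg
The Mt1 window held 1 match and the Mt2 window 2, where 14.7% of all 32851 promoters held at least 1 in a window of that length. Over 300 bases that reach 50 bases past the start, Mt1 held 3 matches and Mt2 held 4, and 1.97% of promoters held 3 or more. The Mt1 matches that begin 2 and 20 bases past the start site lie outside the printed window, and bases further on were not searched. Of the other members, Fth1, Ftl1 and Slc11a1 had none over 300 bases. Tfrc had 2 overlapping matches on opposite strands at 1 start site and 0 at another. Promoter sequences were at hand for 6 of the 9 members, so Hmox1, Slc40a1 and Slc11a2 were not searched.

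After filtering, the vehicle library held 10500 cells and 49325067 UMIs (unique molecular identifiers, each counting a captured transcript), with a median of 3220.5 per cell, and the corticosterone library 17883 cells and 85103539 UMIs, with a median of 3961. Clusters, made without the 9 genes and their pathway, were named by markers. Microglia-like cells made up 75.3% of vehicle cells (7907) and 84.8% of corticosterone cells (15159), and border-associated macrophage-like cells, called macrophage-like below after the macrophages of meninges and vessel walls, 9.75% (1024) and 4.43% (792). Neutrophil-like cells numbered 341 and 395 and erythroid-like barcodes 157 and 152. An unnamed cluster led by class II histocompatibility genes held 180 and 126, and an unnamed cluster of few UMIs 665 and 1146. All 11 microglia markers were detected in microglia-like cells, at a summed 39337 and 33693 CPM. Other classes also carried them: the markers' median level relative to microglia-like cells was 0.857 and 0.683 in macrophage-like, 0.581 and 0.360 in neutrophil-like, and 0.804 and 0.888 in erythroid-like barcodes. The libraries shared 104 barcode strings.

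Between the microglia-like cells of the libraries, corticosterone had more RNA of the phagosomal metal pump Slc11a1 and of the transferrin receptor Tfrc, less of the iron exporter Slc40a1, and levels within 1.5-fold of vehicle for the other 6 members, among which the haem-degrading enzyme Hmox1 lay closest to that line (1.47-fold lower). At least 1.5-fold higher were 2 of the 9 members, Slc11a1 and Tfrc, where 5.95% of the 9671 genes with a mean of at least 5 CPM were. At least 1.5-fold lower was 1 member, Slc40a1, where 6.45% of those genes were. The members' median log2 ratio of corticosterone over vehicle was -0.08, and that of all these genes was -0.01.

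**Figure D1:**
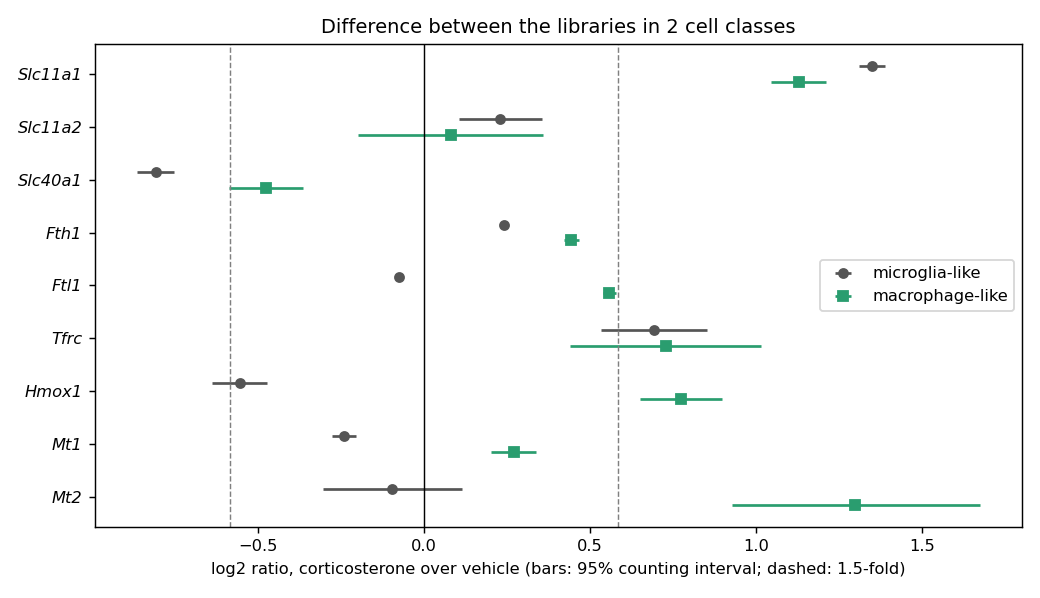
The log2 ratio of corticosterone over vehicle (x axis) is plotted for each of the 9 genes (y axis) in microglia-like cells (circles) and macrophage-like cells (squares), with bars for the 95% counting interval and dashed lines at 1.5-fold. Slc11a1 is high and Slc40a1 low in both classes, while Ftl1, Hmox1, Mt1 and Mt2 lie left of 0 in microglia-like and right of 0 in macrophage-like cells; for Ftl1 and Mt2 in microglia-like cells the side of 0 changes with the scaling (Ftl1 0.028 and Mt2 0.008 with DESeq2 size factors).

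Among the genes of metal uptake, Slc11a1 (ENSMUSG00000026177, chromosome 1, 74375195 to 74386062) encodes NRAMP1, which moves iron and manganese out of the phagosome and by which macrophages withhold metals from engulfed microbes. Its level in microglia-like cells was 190.2 CPM (185 to 195) under vehicle and 485 CPM (479.8 to 490.0) under corticosterone, the largest ratio among the members there, 2.55-fold (log2 1.35, 1.31 to 1.39). The log2 ratio of Slc11a1 lay between 1.32 and 1.83 over the 16 other settings tried. With each cell thinned to 1000 UMIs, 16.4% of vehicle microglia-like cells (15.6 to 17.3%) and 38.2% of corticosterone cells (37.4 to 38.9%) held an Slc11a1 UMI, against 43.0% and 80.6% unthinned at median depths of 3182 and 4001 UMIs. Erythroid-like barcodes, from a lineage not known for Slc11a1, held it in 12.4% (7.26 to 19.4%) and 31.3% (24.0 to 39.4%) after thinning, at unthinned median depths of 2555 and 3905 UMIs. These shares overlapped those of microglia-like cells in counting error, and P2ry12, a microglia gene, was found in 90.7% and 93.3% of the same thinned barcodes, so the Slc11a1 shares are not read as shares of expressing cells.

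Slc11a1 was also higher in the corticosterone library outside the microglia-like class. In macrophage-like cells it stood at 188 CPM under vehicle and 411 CPM under corticosterone (log2 1.13, 1.05 to 1.21). In neutrophil-like cells it stood at 144 and 232 CPM (log2 0.69, 0.48 to 0.89), and in erythroid-like barcodes at 132 and 382 CPM (log2 1.54, 1.14 to 1.96). The unnamed clusters, with 173 and 374 CPM in that of few UMIs and 204 and 422 CPM in that led by class II genes, differed the same way, so the intervals lay above 0 in all 6 classes with at least 50 cells per library. The ratio was lowest in neutrophil-like cells, the class of these 6 with the least microglia marker RNA, and the part of microglial RNA in the other classes' values was not tested. In vehicle the 5 highest classes for Slc11a1 each overlapped the next in counting interval. In corticosterone microglia-like cells stood above all others and neutrophil-like cells below all others.

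Tfrc (ENSMUSG00000022797, chromosome 16, 32608920 to 32632794) encodes the transferrin receptor, whose 3′ UTR carries the 4 hairpins printed above. Its level in microglia-like cells was 12.7 CPM (11.5 to 14.0) under vehicle, from 410 UMIs, and 20.5 CPM (19.4 to 21.5) under corticosterone, from 1451 UMIs. The corticosterone library was 1.62-fold higher (log2 0.69, 0.53 to 0.85), and the ratio fell just under the 1.5-fold line among the settings tried only with all kept cells (log2 0.57). Tfrc was higher by a similar ratio in macrophage-like cells, at 18.5 and 30.6 CPM (log2 0.73, 0.44 to 1.02), which held the highest Tfrc level of the 6 classes in both libraries. In vehicle Tfrc there overlapped other classes in counting interval, among them the cluster led by class II genes, and in corticosterone Tfrc there stood above all others. In neutrophil-like cells it rested on 17 and 35 UMIs (7.92 and 14.8 CPM; log2 0.90, 0.03 to 1.83). Elsewhere Tfrc counts were from 4 to 26 UMIs and every interval of the ratio held 0, so a difference was not detectable at this depth.

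Slc11a2 (ENSMUSG00000023030, chromosome 15, 100387898 to 100425072) encodes DMT1, which carries ferrous iron out of the endosome after transferrin uptake. It stood at 23.0 CPM (21.4 to 24.7) under vehicle and 27.0 CPM (25.8 to 28.2) under corticosterone microglia-like cells, a log2 ratio of 0.23 (0.11 to 0.35). In macrophage-like cells it stood at 25.0 and 26.4 CPM (log2 0.08, -0.20 to 0.36), and the interval held 0 in each of the other 4 classes as well. In microglia-like and macrophage-like cells Slc11a2 had a ratio nearer to 0 than Slc11a1 or Tfrc. Its locus overlaps Gm5475 on the opposite strand, and reads of the pair cannot be told apart if strand was ignored in counting.

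Of the storage genes, Fth1 (ENSMUSG00000024661, chromosome 19, 9980598 to 9985098) encodes the ferritin heavy chain, which oxidises iron for storage. Its level in microglia-like cells was 2085 CPM (2069.8 to 2101) under vehicle and 2464 CPM (2452 to 2476) under corticosterone, a log2 ratio of 0.24 (0.23 to 0.25). Ftl1 (ENSMUSG00000050708, chromosome 7, 45457944 to 45459884), the light chain that helps form the iron core, was at 2778 CPM (2759.8 to 2796) and 2635 CPM (2624 to 2647), a log2 ratio of -0.08 (-0.09 to -0.06) that became 0.0090 with edgeR TMM factors and 0.028 with DESeq2 size factors. The ferritin chains thus lay within 1.5-fold of vehicle, with Fth1 higher under every setting tried (0.16 to 0.34) and no direction for Ftl1 that held across scalings. After thinning, the median microglia-like cell held 2 UMIs of Fth1 and 2 of Ftl1 in either library.

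Macrophage-like cells held more ferritin RNA than microglia-like cells in both libraries, and there both chains were higher in corticosterone. Fth1 stood at 2894 CPM under vehicle and 3938 CPM under corticosterone (log2 0.44, 0.42 to 0.47). Ftl1 stood at 4039 and 5947 CPM (log2 0.56, 0.54 to 0.58, or 1.47-fold), just inside the 1.5-fold line. Microglia markers in macrophage-like cells stood at 0.857 of their microglia-like level under vehicle and 0.683 under corticosterone. The part of that gap in the ratios of this class, for ferritin and for the members described below, was not tested. For Ftl1 macrophage-like cells ranked highest of the 6 classes in both libraries, followed by the cluster led by class II genes (3516 and 4252 CPM) and by neutrophil-like cells (3081 and 3659 CPM), with no overlap of intervals between these neighbours. For Fth1 the cluster led by class II genes (2984 and 3168 CPM) overlapped macrophage-like cells in vehicle and lay below them in corticosterone. The cluster of few UMIs had the lowest ferritin levels, Fth1 at 1455 and 1319 CPM and Ftl1 at 1826 and 1536 CPM. The genome holds near-identical ferritin copies, and how reads were split among them is not given in the sources used here; the row for Ftl1-ps1 alone held 35.5 and 39.6 CPM in microglia-like cells.

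**Figure D2:**
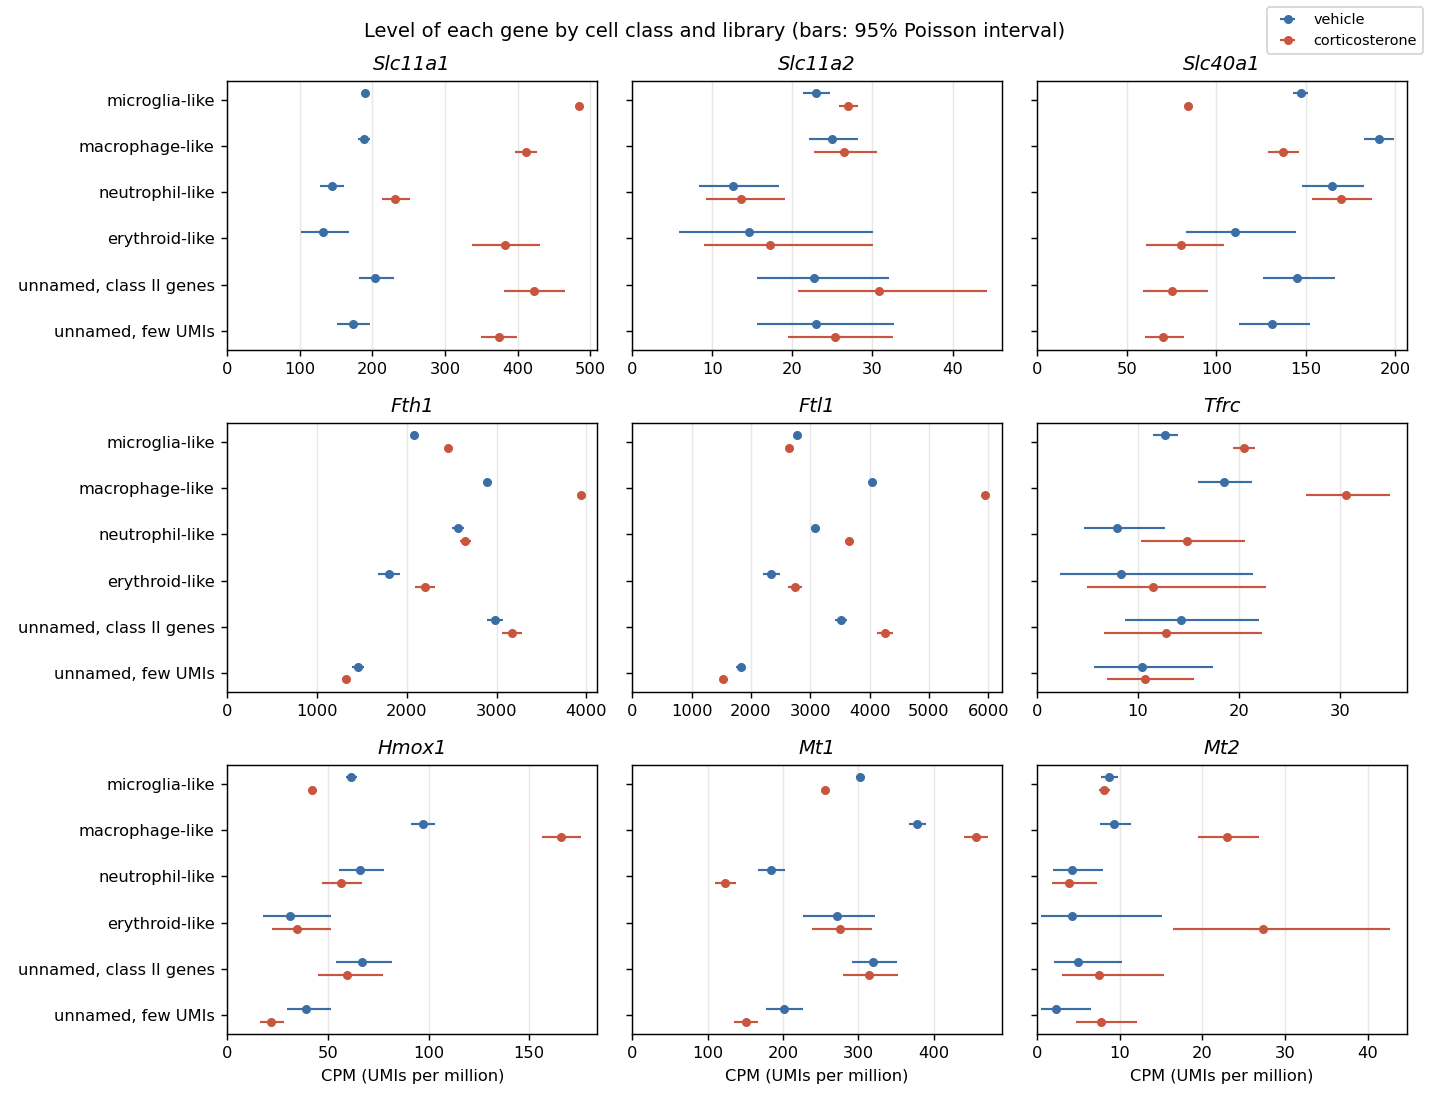
Each panel plots 1 gene's level in CPM (x axis, starting at 0) in the 6 cell classes with at least 50 cells per library (y axis), with vehicle and corticosterone as separate points and bars for the 95% Poisson interval. Ferritin is highest in macrophage-like cells of the corticosterone library (Fth1 3938 and Ftl1 5947 CPM), and Slc40a1 stays at 164 and 169 CPM in neutrophil-like cells while it is 84.1 against 147 CPM in microglia-like cells.

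Slc40a1 (ENSMUSG00000025993, chromosome 1, 45908068 to 45926523) encodes ferroportin, the known exporter of iron from the cell. It stood at 147 CPM (143 to 151) under vehicle microglia-like cells and 84.1 CPM (82.0 to 86.2) under corticosterone, 1.75-fold lower (log2 -0.81, -0.86 to -0.75). The log2 ratio of Slc40a1 stayed between -1.49 and -0.70 over the other settings. After thinning, 17.4% of vehicle (16.5 to 18.3%) and 10.5% of corticosterone microglia-like cells (9.97 to 11.0%) held an Slc40a1 UMI, against 38.0% and 28.4% unthinned. Erythroid-like barcodes held it in 12.4% (7.26 to 19.4%) and 10.0% (5.71 to 16.0%); young red cells are known to express it, so these are no blank.

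Slc40a1 was lower in corticosterone in 4 of the 6 classes with an interval below 0. Macrophage-like cells had 191 and 137 CPM (log2 -0.47, -0.59 to -0.36). The cluster led by class II genes had 145 and 75.5 CPM (log2 -0.94, -1.35 to -0.55), and the cluster of few UMIs 131 and 70.4 CPM (log2 -0.90, -1.21 to -0.59). In erythroid-like barcodes the ratio was -0.46 (-1.03 to 0.11). Neutrophil-like cells held 164 CPM (148 to 183) under vehicle and 169 CPM (153 to 187) under corticosterone (log2 0.04, -0.17 to 0.25), an interval that lies above the whole interval of microglia-like cells. Whether the classes differ beyond differences between libraries was not tested. In the order of Slc40a1 levels, microglia-like cells stood below macrophage-like and neutrophil-like cells in both libraries, with an interval in vehicle that overlapped that of neutrophil-like cells.

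Hmox1 (ENSMUSG00000005413, chromosome 8, 75093621 to 75100589) encodes haem oxygenase 1, the inducible enzyme that opens haem and frees its iron. In microglia-like cells it stood at 61.7 CPM (59.0 to 64.4) under vehicle and 42.0 CPM (40.5 to 43.5) under corticosterone, a log2 ratio of -0.55 (-0.64 to -0.47), or 1.47-fold lower. It was past 1.5-fold with cells thinned to 1000 UMIs (log2 -0.68) and under a marker rule applied to each cell (log2 -1.30). With all kept cells Hmox1 had a log2 ratio of -0.39. In macrophage-like cells it lay the other way, at 97.0 CPM (91.2 to 103) and 166 CPM (156 to 176), 1.71-fold higher (log2 0.77, 0.65 to 0.90). After thinning, 5.53% of vehicle and 3.64% of corticosterone microglia-like cells held an Hmox1 UMI, against 8.81% and 15.3% of macrophage-like cells (unthinned 17.1% and 14.4%, and 44.8% and 59.0%). Erythroid-like barcodes held it in 0 of 129 thinned vehicle cells (upper bound 2.82%) and in 3.33% of corticosterone cells (1.09 to 7.61%). Neutrophil-like cells (66.2 and 56.3 CPM) and the cluster led by class II genes (66.8 and 59.5 CPM) had intervals of the ratio that held 0, and the cluster of few UMIs had 39.3 and 21.7 CPM (log2 -0.86, -1.44 to -0.28).

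Of the metallothioneins, Mt1 (ENSMUSG00000031765) stood at 302 CPM (296 to 308) under vehicle microglia-like cells and 256 CPM (252 to 260) under corticosterone, a log2 ratio of -0.24 (-0.28 to -0.20). Mt2 (ENSMUSG00000031762) stood at 8.68 CPM (7.70 to 9.76), from 281 UMIs, and 8.12 CPM (7.47 to 8.81), from 576 UMIs, a log2 ratio of -0.10 (-0.30 to 0.11) that became 0.008 with DESeq2 size factors. Neither gene was higher in the corticosterone library beyond counting error in the class that makes up most of the sort, under the total-count scaling. After thinning, 22.3% and 19.8% of microglia-like cells held an Mt1 UMI (unthinned 49.7% and 51.9%), against 15.5% and 24.0% of erythroid-like barcodes. Mt2 shares its locus with the antisense gene Gm45774, and reads of the pair cannot be told apart where the counting took no account of strand.

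In macrophage-like cells both metallothioneins were higher in corticosterone. Mt1 stood at 378 CPM (367 to 390) and 456 CPM (440 to 472), a log2 ratio of 0.27 (0.20 to 0.34). Mt2 stood at 9.33 CPM (7.58 to 11.4), from 99 UMIs, and 22.9 CPM (19.5 to 26.8), from 159 UMIs, 2.46-fold higher (log2 1.30, 0.93 to 1.68). In neutrophil-like cells Mt1 was lower, at 184 and 123 CPM (log2 -0.58, -0.80 to -0.36), and Mt2 rested on 9 UMIs in either library. Mt1 was nearly level in the cluster led by class II genes (320.0 and 315 CPM) and in erythroid-like barcodes (271 and 276 CPM, with a sign that changed with the scaling), and both intervals held 0. In the cluster of few UMIs Mt1 was lower, at 201 and 151 CPM (log2 -0.42, -0.65 to -0.19), and Mt2 rested on 3 and 19 UMIs (log2 1.80, 0.04 to 4.20). Mt2 in erythroid-like barcodes rested on 2 vehicle and 19 corticosterone UMIs (log2 2.71, 0.66 to 5.86).

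In macrophage-like cells as a class, 4 of the 9 members were at least 1.5-fold higher (Slc11a1, Tfrc, Hmox1 and Mt2), where 7.23% of 9740 genes were, and 0 were at least 1.5-fold lower, where 7.21% were. The members' median log2 ratio was 0.56, against 0.00 over all these genes. Most of these ratios differed in the 523 vehicle and 414 corticosterone macrophage-like cells with the fewer microglia-marker UMIs (marker level 0.698 and 0.408 of microglia-like cells). The log2 ratio there was 1.37 for Hmox1, 0.53 for Fth1, 0.80 for Ftl1, 1.02 for Tfrc, 0.39 for Mt1 and 0.86 for Slc11a1. It was -0.29 for Slc40a1 and -0.13 for Slc11a2 (-0.58 to 0.31), and that of Mt2 was little different at 1.35. In those cells Hmox1 stood at 103 and 265 CPM and Ftl1 at 4478 and 7814 CPM. In this selection, made after the data had been seen, the ratios of Hmox1 and of both ferritins were larger and that of Slc11a1 smaller. Each library was cut at its own median, and the libraries' marker levels lay further apart than in the whole class (0.857 and 0.683). The selection thus compares cells with unequal microglial RNA and cannot show how a ratio changes with purity.

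In the other classes the members' counts are given beside the share of all genes past the same fold. Of the 9 members, 2 were at least 1.5-fold higher in erythroid-like barcodes, where 26.2% of genes were, and 0 lower, where 14.3% were. In neutrophil-like cells 2 of the 8 members at 5 CPM or more were higher (8.72% of genes) and 0 lower (20% of genes). In the cluster of few UMIs 1 of 8 was higher (13.5%) and 2 lower (11.4%), and in the cluster led by class II genes 1 of 9 was higher (14.2%) and 1 lower (14.3%). With all kept cells together, 1 member was higher (5.73%) and 1 lower (5.45%), Slc11a1 and Slc40a1.

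Microglia-like cells were clustered again without the 9 genes, which gave 5 groups present in both libraries. Group 4, with 126 vehicle and 269 corticosterone cells, was led by Lpl, Cst7, Itgax, Csf1 and Axl, genes known from microglia near amyloid deposits and in developing white matter. Hmox1 in group 4 stood at 203 CPM (169 to 241) under vehicle and 128 CPM (111 to 147) under corticosterone, where the other 4 groups lay between 51.4 and 61.3 CPM and between 34.8 and 40.6 CPM. Mt1 stood at 569 CPM (513 to 631) and 394 CPM (364 to 426), against 288 to 377 and 205 to 265 CPM elsewhere. Group 4 thus held the highest Hmox1 and Mt1 of the 5 groups in both libraries, and in both libraries its intervals lay apart from those of the other groups.

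Ferritin was also highest in group 4, with Fth1 at 3172 and 4365 CPM and Ftl1 at 4105 and 4828 CPM in group 4. The other groups held Fth1 at 2041 to 2355 and 2316 to 2535 CPM, and Ftl1 at 2423 to 2875 and 2515 to 2663 CPM. Slc11a2 in group 4 stood at 49.9 and 68.3 CPM, Slc11a1 at 268 and 592 CPM, and Mt2 at 28.1 and 34.2 CPM (18 and 54 UMIs), each the highest of the 5 groups, with vehicle intervals that overlapped those of another group. Tfrc was also highest in group 4, at 28.1 and 32.9 CPM (18 and 52 UMIs), with intervals that overlapped those of group 3 in both libraries. Slc40a1 did not follow this order, with 117 CPM (92.0 to 147) and 85.4 CPM (71.6 to 101) in group 4, where the other groups lay between 142 and 157 and between 72.7 and 92.2 CPM. In all 5 groups the corticosterone library was higher for Slc11a1 (log2 1.14 to 1.46), lower for Slc40a1 (-1.11 to -0.45) and lower for Hmox1 (-0.76 to -0.47), each with an interval that left out 0. Group 3, led by the neutrophil granule genes Camp and Ngp, gave log2 ratios of 1.34 for Slc11a1 and -0.62 for Slc40a1.

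**Figure D3:**
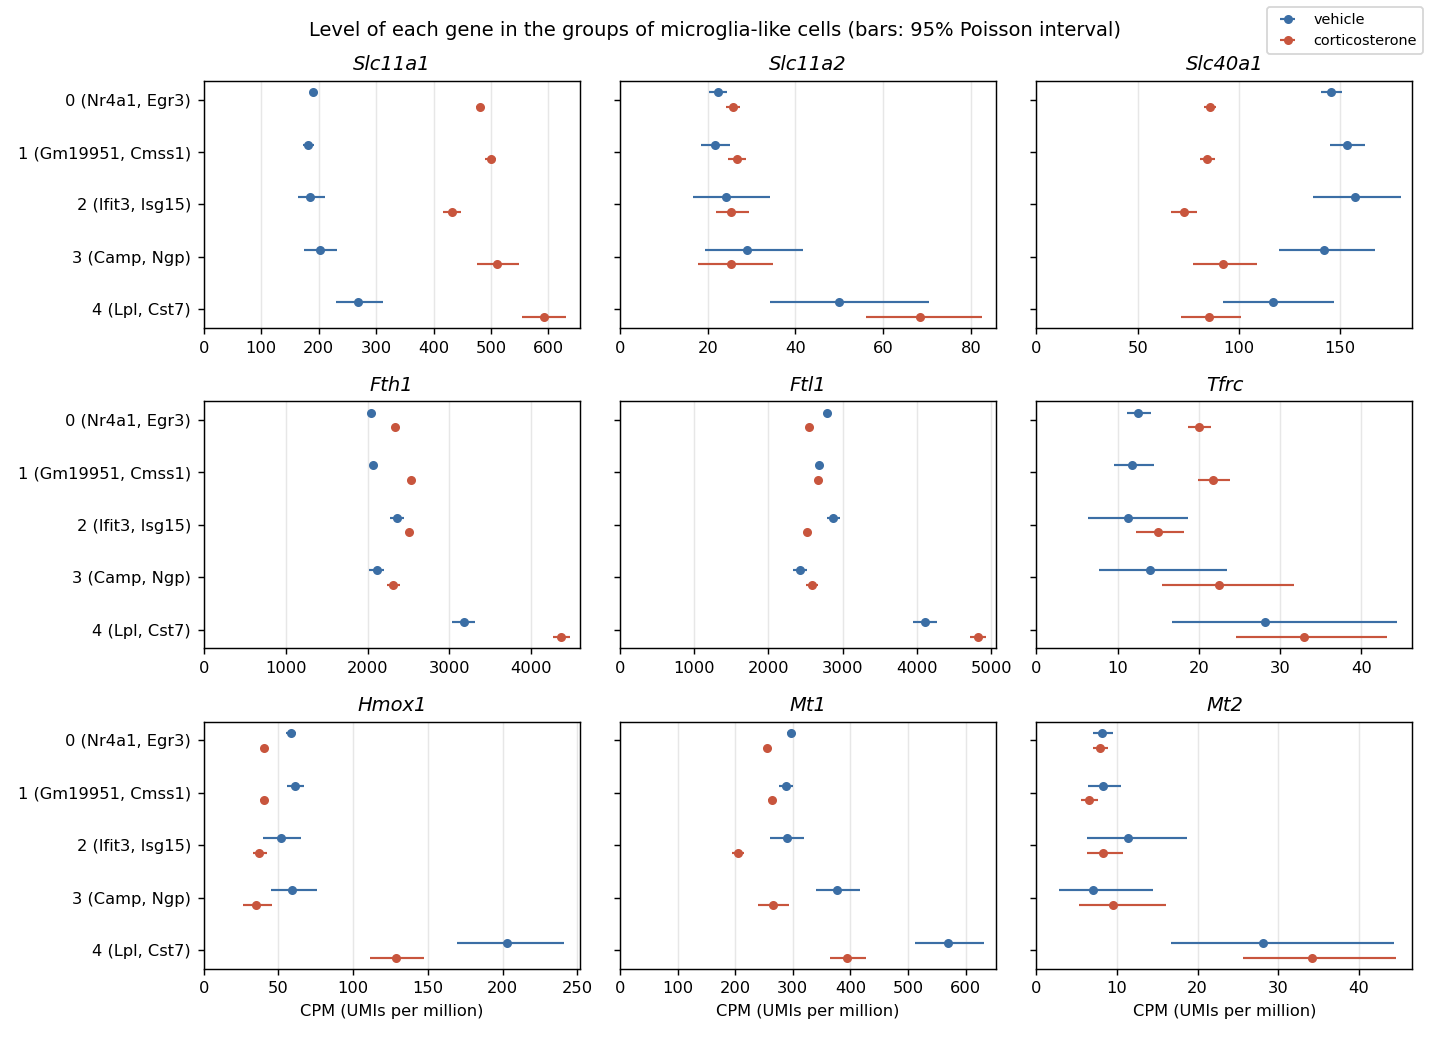
Each panel plots 1 gene's level in CPM (x axis, starting at 0) in the 5 groups of microglia-like cells, named by leading genes (y axis), with vehicle and corticosterone as separate points and bars for the 95% Poisson interval. The group led by Lpl and Cst7 stands apart for Hmox1 (203 and 128 CPM), Mt1, Fth1 and Ftl1, and Slc11a1 is higher in corticosterone in all 5 groups.

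Over single microglia-like cells, the gene most like Fth1 was Ftl1 and the reverse. Across the 7907 vehicle and 15159 corticosterone cells, their log-normalised UMIs had a Pearson r of 0.205 and 0.207, against a median r of 0.032 and 0.0071 between Fth1 and the 5109 genes found in at least 10% of cells of both libraries. After its partner, Fth1 was most like B2m, the light chain of class I histocompatibility molecules (0.138 and 0.138), and Ctsb, a lysosomal protease (0.150 and 0.131). Ftl1 was most like Ctsb (0.163 and 0.175) and Ctsd (0.149 and 0.160). The cells of a library share depth and free RNA, so these values describe the cells and carry no p-value.

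The remaining ranked members had lower r than the ferritin chains. Their median r with the genes compared lay between 0.017 and 0.028 in vehicle and between 0.0068 and 0.014 in corticosterone. The median microglia-like cell held 0 UMIs of each after thinning, and the part of such sparse counts in the low r was not tested. Slc11a1 was most like Ctsc, Itgb2 and Ctsz, with r between 0.069 and 0.097, Slc40a1 most like Pmepa1, Fcrls and P2ry12 (0.054 to 0.064), Hmox1 most like Ctsb, Prdx1 and Cd63 (0.039 to 0.076), and Mt1 most like Ftl1, Tmsb4x and Fth1 (0.061 to 0.086). The pair of Slc11a1 and Slc40a1, which differed in opposite directions between the libraries, had r of 0.024 and 0.0031 across cells within them. Slc11a2, Tfrc and Mt2 were found in under 10% of cells in at least 1 library and were not ranked.

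Of 60 other genes of iron, haem, zinc and copper handling and of the oxidant response, 46 had a mean of at least 5 CPM in microglia-like cells. Of these, 1 was at least 1.5-fold higher (Trf), 4 were at least 1.5-fold lower (Slc25a37, Lcn2, Slc39a8 and Hfe) and 41 lay between, with a median log2 ratio of 0.06. The balance depended on the scaling: with TMM factors 4 were higher (Trf, Blvrb at 0.66, Slc31a1 at 0.66 and Slc39a14 at 0.59) and 2 lower (Slc25a37 and Lcn2), and Slc39a8 (-0.55) and Hfe (-0.53) fell inside the line. DESeq2 size factors called the same genes. These shares can be read against the 5.95% and 6.45% of all genes given above. Among iron uptake and transferrin genes, 1 of 7 was higher and 3 lower. Trf, which encodes transferrin, the iron carrier of blood, stood at 687 CPM (678 to 696) under vehicle and 1464 CPM (1455 to 1472) under corticosterone (log2 1.09). Oligodendrocytes also express Trf, and 6 oligodendrocyte markers, none at 0, summed to 61.6 and 69.7 CPM in microglia-like cells. Slc39a8, a zinc and iron importer, stood at 25.7 and 16.5 CPM (log2 -0.64), and Hfe, a partner of the transferrin receptor, at 117 and 76.5 CPM (log2 -0.61).

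Slc25a37, mitoferrin, which carries iron into mitochondria, stood at 68.0 CPM (65.2 to 70.9) under vehicle and 31.5 CPM (30.2 to 32.8) under corticosterone (log2 -1.11). Slc25a37 is strongly expressed by red cell precursors, and 7 erythroid markers, 1 of them at 0 in both libraries, summed to 44.5 and 19.6 CPM in microglia-like cells. Without the cells that held a haemoglobin UMI, the log2 ratio of Slc25a37 was -1.10. That removal leaves cells that hold only other erythroid RNA in place. Lcn2, a siderophore-binding protein of neutrophil granules, stood at 21.7 and 8.95 CPM (log2 -1.28), and 10 neutrophil markers, none at 0, summed to 888 and 685 CPM. Over the 16 other settings the log2 ratio of Lcn2 lay between -1.68 and -0.11, so its size depended strongly on the setting. Lcn2 was also among the leading genes of group 3, with 376 of the 7907 vehicle and 361 of the 15159 corticosterone microglia-like cells. The part of oligodendrocyte and neutrophil RNA in the values of Trf and Lcn2 was not tested. Nor was the part of RNA from erythroid or other cells in the values of Slc25a37.

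In the 6 lists other than uptake, Slc25a37 alone lay past 1.5-fold under the total-count scaling. The genes named next are the extremes among those with a mean of at least 20 CPM, a limit above that of the counts. Those in ferritin turnover and iron sensing were Ncoa4, the receptor for ferritin breakdown (108 and 83.0 CPM; log2 -0.39), and Aco1, iron regulatory protein 1 (21.4 and 28.9 CPM; log2 0.44). Ireb2, iron regulatory protein 2, stood at 47.0 and 41.7 CPM. The sole export gene at that level was Heph, a ferroxidase (24.2 and 33.6 CPM; log2 0.48), and Hamp, the hormone hepcidin, had 1 and 3 UMIs. In haem handling the extremes were Fech, the last enzyme of haem synthesis (40.1 and 31.2 CPM; log2 -0.36), and Blvrb, biliverdin reductase B (64.2 and 95.6 CPM; log2 0.57), while Hmox2, the constitutive haem oxygenase, stood at 171 and 189 CPM. In zinc and copper handling the extremes were Mtf1, the metal-sensing factor of the metallothionein promoters (27.6 and 27.0 CPM; log2 -0.03, but 0.05 with TMM and 0.07 with DESeq2 factors), and Slc31a1, the copper importer (31.7 and 47.2 CPM; log2 0.58, but -0.23 under a marker rule applied to each cell). In the NRF2 list they were Gclc, a glutathione synthesis enzyme (67.3 and 56.0 CPM; log2 -0.27), and Prdx1, a peroxidase (277 and 353 CPM; log2 0.35), with Nfe2l2, NRF2 itself, at 316 and 361 CPM.

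**Figure D4:**
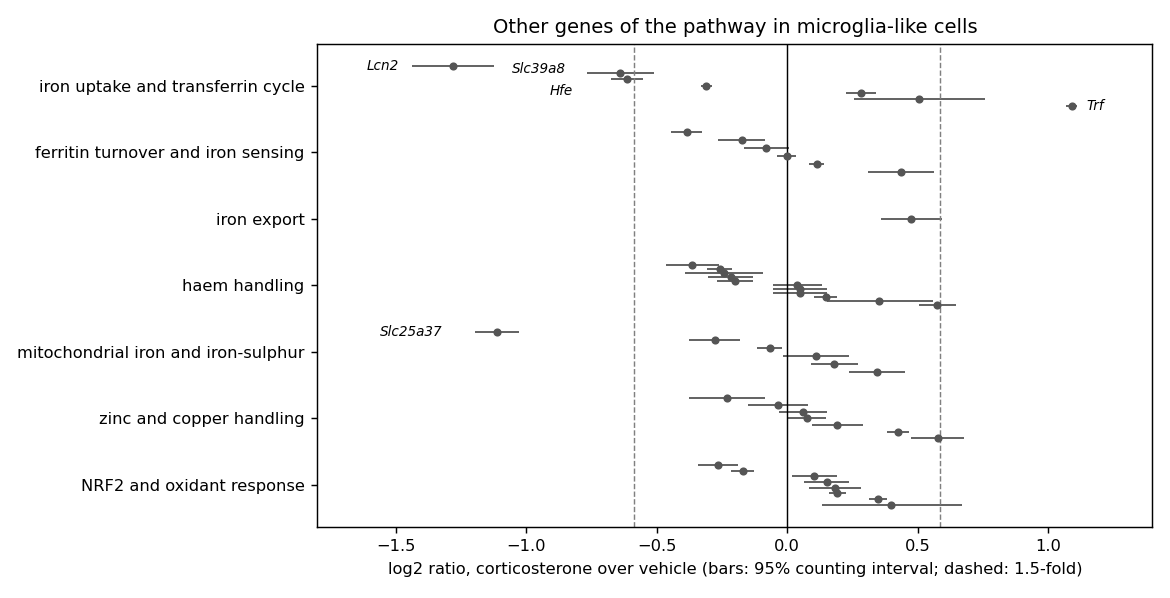
Each point is the log2 ratio of corticosterone over vehicle (x axis) of 1 pathway gene with a mean of at least 5 CPM in microglia-like cells, grouped by list (y axis), with bars for the 95% counting interval and dashed lines at 1.5-fold. Trf (1.09) is the gene past the line on the right, and Slc25a37, Lcn2, Slc39a8 and Hfe are past it on the left.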

How the data were processed

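Single-cell RNA of sorted cells was measured in 1 vehicle and 1 corticosterone library. The deposited matrices hold raw UMI counts per gene and barcode, per the values (whole numbers with differing cell totals); per the submitters' processing notes, reads were demultiplexed with bcl2fastq 2.19 and the build was GRCm38. The aligner, the annotation, the strand setting and the rule that called cells are not given in the sources used here. The members and gene lists were chosen with earlier results of these data known.

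Cells with at least 500 UMIs, 300 genes and at most 20% mitochondrial UMIs were kept, which removed 55 vehicle and 230 corticosterone barcodes. Clustering used 2000 variable genes without the members and pathway genes, 30 components, 15 neighbours and Leiden at resolution 0.5 (scanpy 1.11.5, leidenalg 0.10.2). Each gene was centred within its library, since uncentred clusters split by library; this was chosen after seeing the data. A cluster was named when at least 3 markers of a class lay at 2 times their level elsewhere in its library, or microglia-like when the microglia markers' level was at least 0.5 of all cells, and stayed unnamed when its leading genes went against the name or its relative median UMI count was under 33.3% with no marker among its 10 leading genes. The cluster of few UMIs missed that line at 0.331 of its libraries' median. Scrublet marked 0 cells in either library and was taken to have failed, and no doublets were removed.

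UMIs were summed per class and library and scaled to CPM. Intervals at the 95% level are exact Poisson for levels, exact conditional binomial for ratios and Clopper-Pearson for shares of cells. Named besides the 9 members were the highest and lowest gene of each of 7 pathway lists at a mean of 20 CPM or more, and the 3 genes most like each member, of which 1 list gene is not reported here; Lcn2, Hamp, Ireb2, Hmox2, Nfe2l2, Slc39a14 and Ftl1-ps1 were named after their values were seen, as was Hfe. On simulated counts of 9674 genes with 200 changed by folds well past 1.5, 100% of the changed and 0% of the unchanged genes passed 1.5-fold, and 95.0% of intervals held the true ratio. The simulated counts held counting error alone, with no variation between cells, animals or libraries. They check the arithmetic and cannot show how well a fold holds between libraries. Alternatives covered the scaling (edgeR 4.0.16 TMM, DESeq2 1.42.0 size factors), cell filter, cell classes, depth and doublets.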

Additional observations from a re-analysis of the deposited data

Results flagged for a closer look

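With 1 library per group, 7 log2 ratios of corticosterone over vehicle were picked out because they lay on the other side of 0 from that of microglia-like cells with both counting intervals leaving out 0. None of these differences between classes was tested. Nor was the part of microglial RNA, whose markers in macrophage-like cells stood at 0.857 of the microglia-like level under vehicle and 0.683 under corticosterone. For Ftl1, which was at -0.08 in microglia-like cells and changed sign there with the scaling, the flagged ratios were 0.56 in macrophage-like cells, 0.22 in erythroid-like barcodes, 0.25 in neutrophil-like cells and 0.27 in the cluster led by class II genes. With TMM and DESeq2 factors the Ftl1 ratio was 0.11 and 0.09 in erythroid-like barcodes, and 0.40 and 0.39 in neutrophil-like cells. The median log2 ratio of all genes in erythroid-like barcodes was 0.15 under the total-count scaling. For Hmox1 the ratio was 0.77 in macrophage-like cells against -0.55, and for Mt1 it was 0.27 in macrophage-like cells against -0.24. For Fth1 it was -0.14 in the cluster of few UMIs against 0.24. Groups of 1 library gave no spread in which a sample could stand apart.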

How the results depend on the processing

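No paired analysis was possible because each group was 1 library and the labels give no replicate numbers. With 1 library per group no library could be left out. The members at least 1.5-fold higher in microglia-like cells numbered 2, and 1 with all kept cells and 3 under a marker rule applied to each cell, which kept only 195 vehicle and 225 corticosterone cells and gave no value for Mt2. Those lower numbered 1, and 2 with cells thinned to 1000 UMIs and 3 under the per-cell rule. The pathway genes higher numbered 1, and 4 with TMM factors, 4 with DESeq2 size factors, 4 with no minimum CPM, 10 under the per-cell rule, 2 without cells holding a haemoglobin UMI, 3 without cells holding a macrophage-marker UMI and 2 with thinned cells. Those lower numbered 4, and 2 with TMM factors, 2 with DESeq2 size factors, 3 with thinned cells, 9 under the per-cell rule and 8 with no minimum CPM. TMM factors moved the median log2 ratio of all genes from -0.01 to 0.07 and DESeq2 size factors to 0.09, a shift of 0.10, relative to which the ratios can be read. The sign changed for Ftl1 (0.0090 with TMM factors, 0.028 with DESeq2 size factors) and, under the per-cell rule, for Slc11a2 (-0.64) and Slc31a1 (-0.23). Among ratios whose interval held 0, it also changed for Mt2 (0.0076 with DESeq2 size factors, 0.14 with all kept cells) and for Mtf1 (0.05 with TMM factors, 0.07 with DESeq2 size factors, 0.0097 with all kept cells, 0.0080 without the interferon-led cluster, 0.68 under the per-cell rule); the cause was not tested. Over the alternatives the log2 ratio lay between 1.32 and 1.83 for Slc11a1, 0.57 and 1.09 for Tfrc, -1.49 and -0.70 for Slc40a1, -1.30 and -0.39 for Hmox1 and -0.25 and -0.14 for Mt1. Depth limited Tfrc, Slc11a2 and Mt2 outside microglia-like and macrophage-like cells.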

Other observations

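The 2 named classes with under 50 cells in a library are given as values only. In monocyte-like cells (36 vehicle and 62 corticosterone cells), which carried microglia markers at 0.636 and 0.249 of their microglia-like level, Slc11a1 stood at 302 and 242 CPM (log2 -0.32, -0.76 to 0.13), the only named class where it was not higher in corticosterone. Slc40a1 there stood at 87.0 and 24.8 CPM (log2 -1.81, -2.95 to -0.72), Mt1 at 279 and 105 CPM (log2 -1.41, -1.97 to -0.86) and Ftl1 at 3936 and 5696 CPM (log2 0.53, 0.42 to 0.64). In endothelial-like cells (43 and 27 cells), Slc11a1 stood at 140 and 351 CPM (log2 1.33, 0.78 to 1.88), with microglia markers at 0.901 and 0.839 of their microglia-like level. Mt2 in endothelial-like cells rested on 16 and 10 UMIs (43.9 and 51.7 CPM).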
